A study of Mus musculus with 22 samples.

Results

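The hearts of mice that received the CB2R agonist JWH133 during chronic psychological stress (treatment group, 4 mice, libraries a to d) were compared with the hearts of unstressed mice (control group, 3 mice, libraries a to c). These are 7 of the 11 paired-end total RNA libraries with counts in the deposited table, chosen by the group names of the columns, and the model was fitted on them alone. All mice were males of 6 weeks at the start. The treatment mice were given JWH133 at 10 mg/kg by intraperitoneal injection, 2 injections per day over 3 weeks of stress, and the control mice are described as normal mice kept without stress, with no vehicle injection stated. Stress, drug and injection therefore cannot be told apart here. Neither the strain nor the hour at which the hearts were taken is stated in the sources used here. The 4 libraries of stressed mice without the drug did not enter any test, and their levels are given beside some genes as values only.

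CB2R, encoded by Cnr2, is a Gi-coupled cannabinoid receptor found mainly on leukocytes and their precursors, and JWH133 is a synthetic agonist with a strong preference for it over CB1R, encoded by Cnr1. The adult heart consists of cardiomyocytes that rarely divide, and of endothelial cells, fibroblasts, mural cells and macrophages, a small share of which are in the cell cycle at any time. Blood left in the vessels adds transcripts of red cell precursors, platelets and leukocytes to a whole heart sample. In such bulk RNA, fewer cells of a type and less RNA per cell cannot be told apart.

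The total count was 29410822 to 30940449 in the treatment libraries and 29628337 to 32078770 in the control libraries, with TMM factors of 0.992 to 1.019 over the 7 libraries. No pair of libraries was alike within sampling noise. The control libraries lay close together, at -26.96 to -26.85 on the first principal component (41.5% of the variance), against 18.31 to 21.76 for the treatment libraries. The treatment libraries were spread out on the second component, with library a at 28.53 and library b at -26.87. Cardiac genes were abundant in every library (Ttn, the giant protein of the sarcomere, took 6.39% to 8.31% of the counts in treatment and 6.73% to 7.87% in control). Markers of lung epithelium and hepatocytes were at or near 0, at no more than 15 counts in any library, and Scgb1a1, Alb and Rag1 had no count. Of 7 thymocyte markers 1 passed the filter described below (Arpp21, at 21 to 39 counts in treatment and 36 to 53 in control libraries). The atrial list, in contrast, was not steady: its summed level was 182 to 457 FPKM in treatment and 99.7 to 172 FPKM in control hearts, and none of its 8 tested members was called by edgeR, DESeq2 or limma, with 2 at an unadjusted edgeR p under 0.05 (20.4% of all genes tested).

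Of 21898 genes in the table, 13782 passed a filter on low counts and were tested with edgeR's quasi-likelihood test. At a Benjamini-Hochberg adjusted p under 0.05, 294 genes rose (2.13% of those tested) and 522 fell (3.79%) in the treatment group, and "rose" and "fell" mean this throughout. Of the genes that rose, 91 had a log2 fold change above 1, and of those that fell, 169 had one below -1. The normalized counts of the treatment and control libraries did not overlap for 2688 genes (19.5%), which include 811 of the 816 called genes. At the thresholds of the study's methods (an unadjusted p under 0.05 and a log2 fold change beyond 1 in size), 207 genes (1.5%) were higher and 233 (1.69%) were lower. The number of called genes was 360 without control library a, 342 without b and 275 without c, and 152 (41 higher, 111 lower) when the stress-alone libraries were added to the model. No called gene changed direction in any of these. DESeq2 called 8.95% of the genes tested and limma-voom 5.67%, and 20.4% had an unadjusted edgeR p under 0.05.

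Most genes of mitosis were lower in the treatment group. Of 42 members, 35 fell, none rose, and the median log2 fold change was -1.80, against 0.01 over all genes tested. The summed level of the list was 14.9, 17.6, 14.5 and 19.1 FPKM in treatment libraries a to d, against 43.7, 42.7 and 41.1 FPKM in control libraries a to c. The groups did not overlap, and the level in hearts of stressed mice without the drug was 11 to 16.5 FPKM. The count of members that fell was 28 to 29 when a control library was left out, 33 to 35 when a treatment library was left out and 23 in the model with all 11 libraries. Of the 35, 3 reached the filter's level in fewer than 3 treatment libraries (Hmmr among them) and were tested because of their control level.

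Prc1, a cross-linker of antiparallel microtubules that divides the cytoplasm in cytokinesis, lies on chromosome 7 from 80294450 to 80316259 (plus strand, GRCm38, GENCODE M21, protein-coding). It had 0.232, 0.252, 0.211 and 0.221 FPKM in treatment libraries, against 1.04, 1.08 and 1.14 FPKM in control libraries, and fell by 2.26 ± 0.13 on the log2 scale (SE, edgeR adjusted p = 3.13e-05). Mki67, the coat protein of mitotic chromosomes behind the proliferation marker Ki-67, lies on chromosome 7 from 135689784 to 135716361 (minus strand). It had 0.726, 0.892, 0.626 and 1.10 FPKM in treatment libraries, against 3.89, 4.05 and 3.95 FPKM in control libraries. Its log2 fold change was -2.26 ± 0.16 (SE, edgeR adjusted p = 5.67e-05), and its mean in stressed mice without the drug, 0.837 ± 0.150 FPKM (SD, n = 4), equalled that of the treatment group, 0.837 ± 0.209 FPKM (SD, n = 4), to the digits given. Ccna2, the cyclin of S phase and mitotic entry, had 0.364 to 0.642 FPKM in treatment and 2.44 to 2.65 FPKM in control libraries (log2 fold change -2.36 ± 0.18, SE). The kinesins Kif15 and Kif22, the spindle protein Hmmr and the mitotic cyclin Ccnb1 were among the 12 genes with the most negative fold changes, between -2.69 and -2.52. Cenpf and Cenpa did not pass the test, at -0.20 and -0.04.

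**Figure D1:**
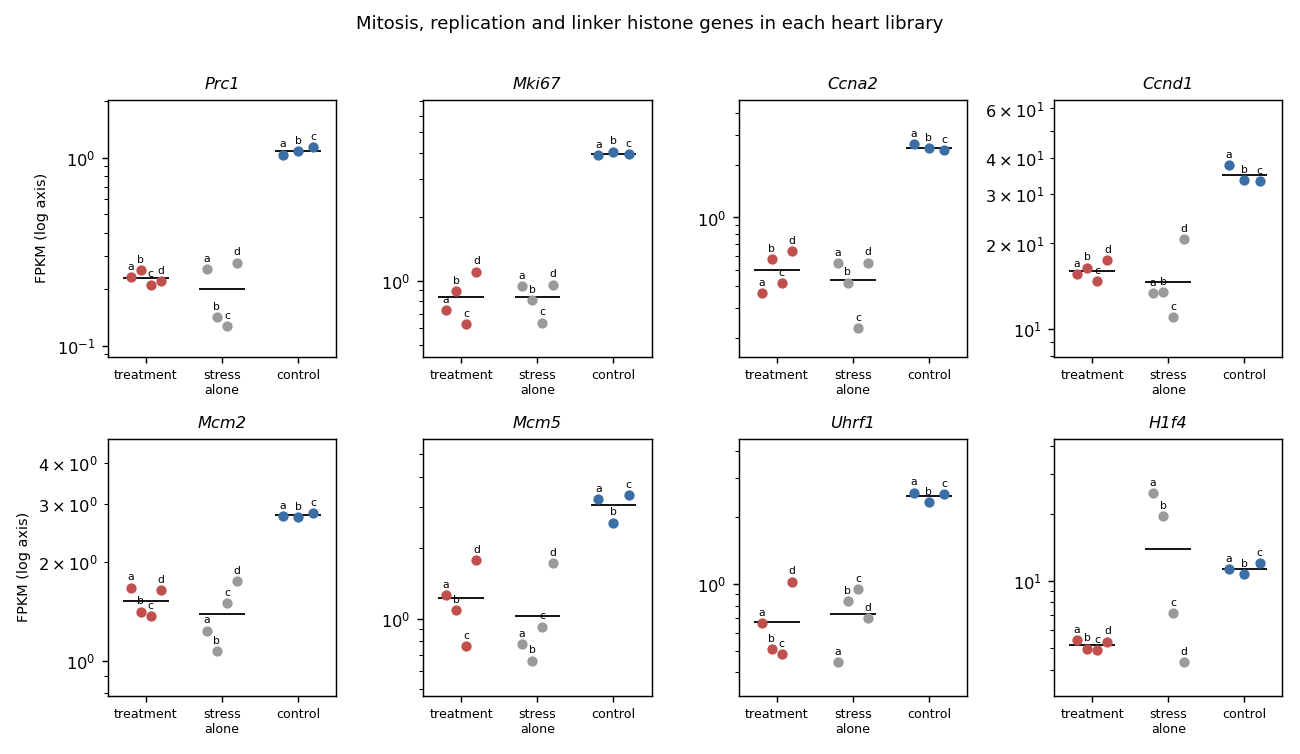
Level in FPKM (log axis) of 8 genes of mitosis, DNA replication and chromatin in each library of the treatment, stress-alone and control groups, with letters for the libraries and a line at the group mean. All 4 treatment libraries lie below all 3 control libraries for each of the 8 genes, for example at 0.626 to 1.10 FPKM against 3.89 to 4.05 FPKM for Mki67.

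The promoters of these genes are shown because many mitotic genes carry a cell cycle homology region (CHR, TTTGAA) with CCAAT boxes upstream of it, the pair bound by the DREAM complex and NF-Y. The promoters are RefSeq sequences of the build GRCm38.p6, from 250 bases before to 50 bases after the first start listed for the gene. They belong to the 3 mitosis genes with the smallest adjusted p for which a promoter was at hand, with TTTGAA and CCAAT on either strand in capitals. Prc1 is at chr7:80294201-80294500 (plus strand), Mki67 at chr7:135716330-135716629 (minus strand) and Iqgap3 at chr3:88081801-88082100 (plus strand).
Prc1: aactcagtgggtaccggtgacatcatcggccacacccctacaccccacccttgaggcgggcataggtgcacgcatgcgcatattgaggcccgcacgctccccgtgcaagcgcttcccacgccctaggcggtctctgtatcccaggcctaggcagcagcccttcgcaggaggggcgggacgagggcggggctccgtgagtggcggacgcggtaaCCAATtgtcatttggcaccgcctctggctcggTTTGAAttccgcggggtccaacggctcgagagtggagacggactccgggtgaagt
Mki67: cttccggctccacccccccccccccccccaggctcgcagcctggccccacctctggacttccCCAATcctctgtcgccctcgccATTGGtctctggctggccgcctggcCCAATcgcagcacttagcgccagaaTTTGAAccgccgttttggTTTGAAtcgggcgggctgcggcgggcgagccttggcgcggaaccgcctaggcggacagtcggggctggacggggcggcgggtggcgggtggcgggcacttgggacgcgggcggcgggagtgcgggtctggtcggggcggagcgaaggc
Iqgap3: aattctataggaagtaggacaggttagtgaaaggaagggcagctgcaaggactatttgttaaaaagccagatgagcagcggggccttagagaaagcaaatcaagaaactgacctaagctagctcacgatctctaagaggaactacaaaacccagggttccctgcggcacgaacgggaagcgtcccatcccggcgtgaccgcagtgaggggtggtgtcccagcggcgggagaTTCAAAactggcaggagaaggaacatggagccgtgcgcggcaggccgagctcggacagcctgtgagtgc
Iqgap3, a scaffold protein at the cleavage site of dividing cells, fell by 2.34 ± 0.23 on the log2 scale (SE, edgeR adjusted p = 0.000611). TTTGAA was in 29 of the 37 promoters of tested mitosis genes (78.4%), against 12% of the 10865 promoters matched to tested genes, and CCAAT was in 27 of the 37 (73%), against 38.6%. Over all genes that fell, TTTGAA was in 88 of 405 promoters (21.7%), and over all that rose, in 30 of 220 (13.6%). A match is a run of letters and not a measured site. No letters of the E2F motif TTTCCCGC were in the 37 promoters, and they were in 2.09% of all.

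Genes of DNA replication were lower too, with smaller changes. Of 29 members, 15 fell, none rose and the median was -0.59. Mcm2, a subunit of the replicative helicase, had 1.67, 1.41, 1.37 and 1.64 FPKM in treatment and 2.76, 2.75 and 2.82 FPKM in control libraries (-0.88 ± 0.10, SE). Mcm5 of the same helicase had 0.764 to 1.78 FPKM in treatment and 2.56 to 3.36 FPKM in control libraries. Uhrf1, which carries DNA methylation through replication, had 0.668, 0.511, 0.485 and 1.03 FPKM in treatment and 2.59, 2.34 and 2.55 FPKM in control libraries (-1.90 ± 0.23, SE). Pcna and Fen1 stood at -0.31 and -0.30 and did not pass the test. The number of members that fell was 4 to 9 without a control library and 5 in the model with 11 libraries.

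The replication-dependent histones, whose mRNAs are made in S phase, gave 29 genes that fell and none that rose among 48 tested of 63 members, with a median of -1.16. Their coding sequences are nearly identical and reads can be split between copies, so the values of single copies are uncertain. Of the 29, 5 were tested because of their control level alone. The number that fell was 16 to 21 without a control library and 12 in the model with 11 libraries. H1f4, a linker histone with a more distinct sequence, had 5.43, 4.97, 4.88 and 5.33 FPKM in treatment and 11.3, 10.7 and 12 FPKM in control libraries (-1.15 ± 0.09, SE, edgeR adjusted p = 0.000117). In the stress-alone libraries it ranged widely, at 4.33 to 24.8 FPKM. Ccnd1, the cyclin that couples growth signals to the start of the cycle, was far more abundant than the mitotic genes and fell as well. It had 15.5, 16.4, 14.7 and 17.5 FPKM in treatment and 37.8, 33.5 and 33.2 FPKM in control libraries (-1.14 ± 0.08, SE).

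Genes of the platelet lineage had large positive fold changes. Gp9 and Gp6 (platelet receptors for von Willebrand factor and collagen), Treml1, Mpig6b, Tubb1 (the tubulin of the platelet rim), Ppbp (a chemokine stored in platelet granules) and F5 (coagulation factor V) are among the 12 genes with the largest log2 fold change, at 3.50 to 5.91. Of the 8 markers on the platelet list, 7 passed the filter on low counts and 6 rose. Of these 7, Gp9, Gp5, Treml1 and Clec1b were below the filter's level of 0.328 CPM in a control library, as were Gp6, Mpig6b and Tubb1. These genes were tested because of their treatment level, so that their calls, their number and their rank among the fold changes carry no weight of their own. Ppbp, Itga2b and F5 were at or above that level in all 7 libraries. Gp1bb had no count, and Pf4 had 10.7, 13.1, 12.2 and 21.3 FPKM in treatment and 14, 10.3 and 13.9 FPKM in control libraries, which overlap.

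Ppbp lies on chromosome 5 from 90768518 to 90770063 (plus strand). It had 5.70, 9.83, 17.2 and 37.0 FPKM in treatment libraries a to d, against 0.758, 1.68 and 1.07 FPKM in control libraries, a log2 fold change of 3.89 ± 0.64 (SE, edgeR adjusted p = 0.00618). Tubb1 had 2.41, 4.35, 8.30 and 19.5 FPKM in treatment and 0.0449, 0.768 and 0.288 FPKM in control libraries. Itga2b, the integrin chain that binds fibrinogen, had 0.806, 1.35, 2.0 and 4.90 FPKM in treatment and 0.231, 0.192 and 0.314 FPKM in control libraries. F5 had 0.422, 0.545, 0.989 and 2.16 FPKM in treatment and 0.0510, 0.0954 and 0.0755 FPKM in control libraries. For each of these genes library d was the highest and library a the lowest of the treatment group, and no treatment library overlapped a control library. In stressed mice without the drug Ppbp had 0.712 to 2.89 FPKM and Tubb1 0.248 to 0.966 FPKM, which overlap the control libraries and lie below every treatment library. Itga2b had 0.431 to 0.610 FPKM and F5 0.109 to 0.261 FPKM in those mice, above every control library and below every treatment library.

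Some of these genes had very few control counts, and their fitted fold changes depend on how small counts are treated. Gp9 had 341 counts over the treatment libraries and 4 over the control libraries, a ratio of 66 after scaling to the library totals with an exact 95% interval of 25.6 to 244, which covers counting error only. For Treml1 the counts were 231 and 6, with a ratio of 29.8 and an interval of 13.5 to 82.1. Leaving out any control library left 2 platelet markers called, and the other settings left 1 to 6. Ppbp and F5 stayed called in each of the 7 fits without a library, but both calls were lost with limma-voom and with robust empirical Bayes, and that of F5 also with limma on log2(FPKM + 1). Itga2b lost its call in these 3 settings and without control library a or b.

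Genes of red cells and their precursors rose, with a different order of the libraries. Of 11 members, 9 were tested and 8 rose, and 2 of the 9 were below the filter's level in a control library. Hbb-bs, an adult beta globin, lies on chromosome 7 from 103826534 to 103828096 (minus strand). It had 1071, 632, 1343 and 1216 FPKM in treatment libraries a to d, against 193, 174 and 205 FPKM in control libraries (2.46 ± 0.22, SE, edgeR adjusted p = 0.000279). Globin copies share reads, but Alas2, which starts heme synthesis in red cell precursors, is a single gene and had 16.2, 6.72, 16.8 and 19.5 FPKM in treatment and 2.74, 2.72 and 3.41 FPKM in control libraries. Slc4a1, the anion exchanger of the red cell membrane, had 1.28, 0.222, 0.670 and 2.02 FPKM in treatment and 0.181, 0.0828 and 0.159 FPKM in control libraries. Library b was the lowest of the treatment group for Hbb-bs, Alas2 and Slc4a1, whereas library a was the lowest for the platelet genes above. Stressed mice without the drug had 487 to 847 FPKM of Hbb-bs and 6.34 to 12.4 FPKM of Alas2, all above the control libraries. The number of erythroid members that rose was 4 to 6 without a control library. How much blood remained in the hearts was not measured, and its part in these values was not tested.

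**Figure D2:**
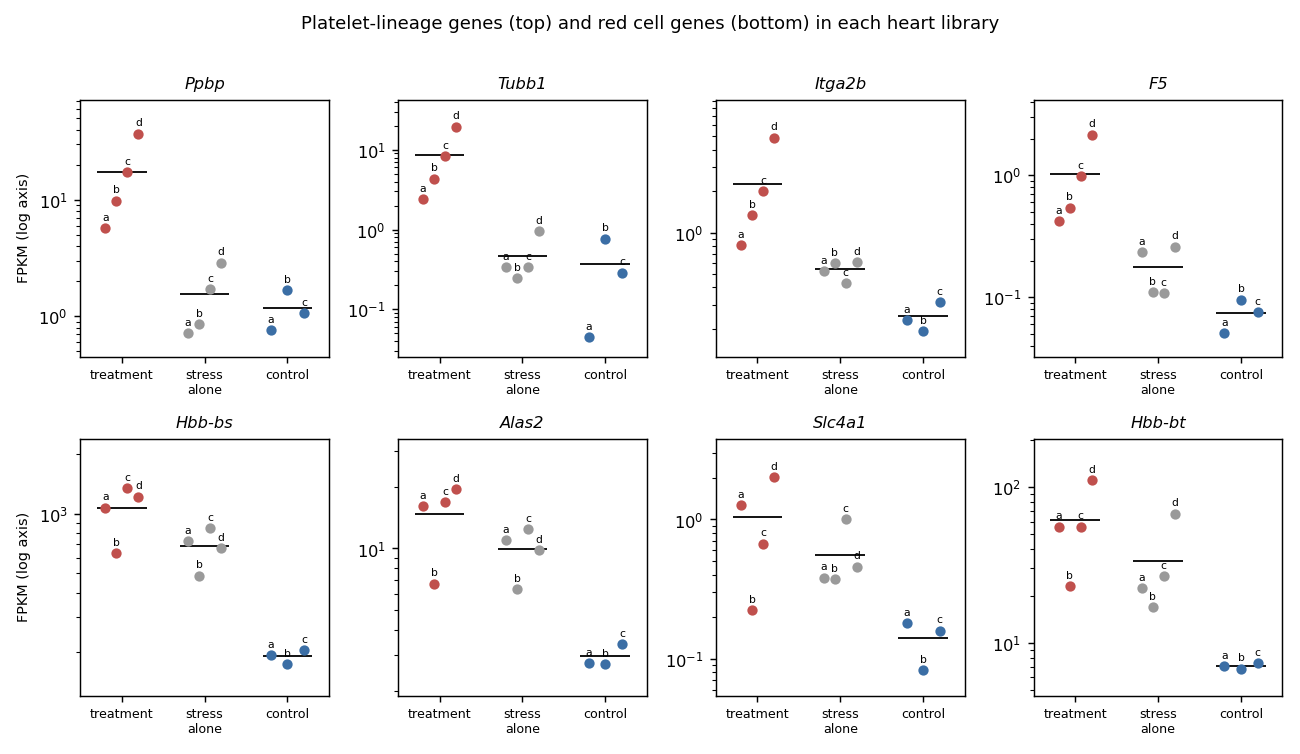
Level in FPKM (log axis) of 4 platelet-lineage genes (top row) and 4 red cell genes (bottom row) in each library of the treatment, stress-alone and control groups, with letters for the libraries and a line at the group mean. For Ppbp the treatment libraries lie at 5.70 to 37.0 FPKM and the stress-alone and control libraries at 0.712 to 2.89 FPKM, while for Hbb-bs the stress-alone libraries lie between the other groups or among the treatment libraries.

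Markers of leukocytes moved unevenly. Of 13 neutrophil markers, 5 were tested and 2 rose (S100a8 and Csf3r), and Mpo had no count. S100a8, Retnlg and Cxcr2 were below the filter's level in a control library and were tested because of their treatment level. The summed level of the list was 23.5, 2.83, 6.04 and 11.3 FPKM in treatment libraries a to d and 1.69, 1.31 and 1.33 FPKM in control libraries. S100a8, a calcium-binding protein of neutrophils and monocytes, had 12.9, 0.294, 2.88 and 5.77 FPKM in treatment and 0.318, 0.292 and 0.0449 FPKM in control libraries, so that library b overlapped the control group. No fit without a control library called a neutrophil marker. Csf3r, the receptor of the granulocyte growth factor, had 1.01 to 1.67 FPKM in treatment and 0.617 to 0.734 FPKM in control libraries. Ccl8, a chemokine made by resident macrophages, had 5.76, 5.66, 2.57 and 7.17 FPKM in treatment and 0.432, 0.198 and 0.732 FPKM in control libraries (3.49 ± 0.47, SE). It reached the filter's level in 1 control library only and was tested because of its treatment level, so its call is no support of its own. The 8 resident macrophage markers gave no call by edgeR or limma. At an unadjusted edgeR p under 0.05 were 3 (20.4% of all genes tested), and DESeq2 called 3 (8.95% of all genes tested). Their summed level was 137 to 145 FPKM in treatment and 130 to 144 FPKM in control libraries. Of 6 general macrophage and leukocyte markers, 2 rose and 4 did not pass the test, with a median log2 fold change of 0.25. The 2 were Adgre1 and Ptprc, the antigens F4/80 and CD45, at 0.49 and 0.58, and neither was called without a control library. The 6 markers summed to 35.0, 46.3, 32.2 and 34.9 FPKM in treatment libraries a to d. In control libraries they summed to 35.0, 33.3 and 32.6 FPKM, so that the groups overlapped.

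Several genes of the acute phase response and of complement rose. Of 15 tested members of 18, 9 rose, none fell and the median was 0.53. Serpina3n, a secreted inhibitor of serine proteases induced by inflammation and glucocorticoids, had 19.9, 15.2, 23.4 and 8.44 FPKM in treatment and 2.94, 3.43 and 4.02 FPKM in control libraries (2.25 ± 0.29, SE, edgeR adjusted p = 0.00196). In stressed mice without the drug it was at 77.6 to 134 FPKM, above every treatment library. C4b, a complement component of the classical pathway, had 14.8, 14.7, 12.6 and 19.1 FPKM in treatment and 3.46, 4.63 and 6.71 FPKM in control libraries (1.62 ± 0.21, SE). C3, the central component, had 61.8 to 100 FPKM in treatment and 32.4 to 47.2 FPKM in control libraries. Lcn2, an iron-siderophore binder, rose by 2.6 ± 0.42 on the log2 scale (SE). The regulators Serping1 and Cd55 rose by 0.56 and 0.66. The C1q chains C1qa, C1qb and C1qc did not pass the test, at 0.18 to 0.24. Without a control library 8 members were called.

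Genes of antigen presentation by MHC class I and of the interferon response were higher in some treatment hearts and not in others. B2m, the common light chain of class I molecules, had 325, 242, 142 and 272 FPKM in treatment libraries a to d and 147, 125 and 130.1 FPKM in control libraries, so that library c overlapped the control group. B2m, H2-D1 and H2-K1 rose among the 10 class I members. These calls were lost whenever a control library was left out, and 8 members rose without treatment library c. The interferon-stimulated list had 33 of 33 tested members with a positive log2 fold change and a median of 0.94, but only Gbp6 rose, against 8 members without treatment library c. Its summed level was 229, 828, 174 and 531 FPKM in treatment libraries a to d and 219, 208 and 214 FPKM in control libraries. Libraries b and d were high, while libraries a and c lay near the control group. Irf7, the transcription factor that amplifies type I interferon, had 6.37, 40.8, 4.58 and 19.2 FPKM in treatment and 4.70, 4.77 and 4.70 FPKM in control libraries (1.88 ± 0.62, SE, edgeR adjusted p = 0.109). Gbp6, a GTPase induced by interferon gamma, had 4.66, 5.38, 2.18 and 4.41 FPKM in treatment and 1.12, 0.918 and 1.39 FPKM in control libraries (1.84 ± 0.27, SE). The 7 tested MHC class II members gave no call by edgeR, DESeq2 or limma. An unadjusted edgeR p under 0.05 was reached by 1 (20.4% of all genes tested).

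**Figure D3:**
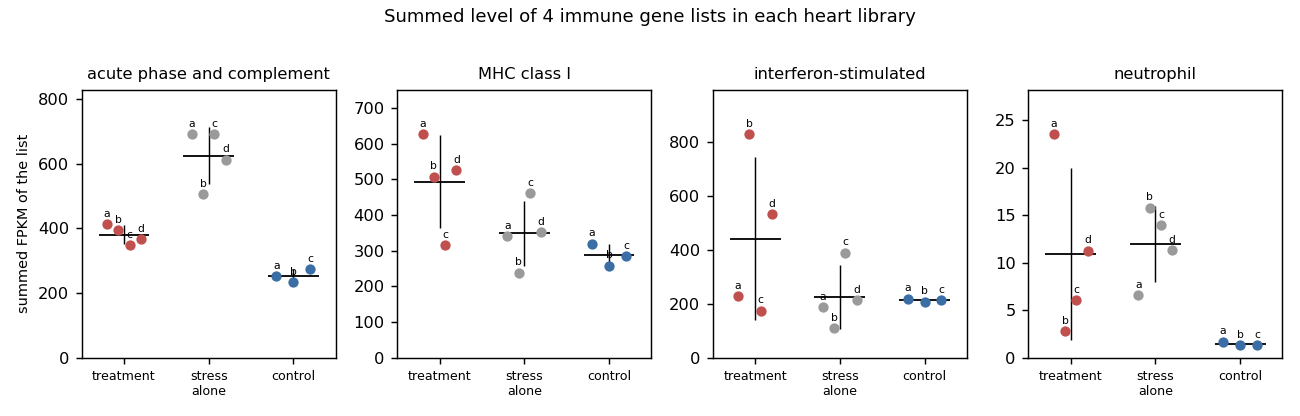
Summed FPKM of the members of 4 gene lists in each library of the treatment, stress-alone and control groups, with letters for the libraries, a line at the group mean and a bar of ± 1 SD. Acute phase and complement genes lie apart in treatment and control libraries, while the interferon-stimulated list is at 828 and 531 FPKM in treatment libraries b and d and at 229 and 174 FPKM in libraries a and c.

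The circadian clock genes stood at different levels in the groups. In the clock, BMAL1 (gene Arntl) and CLOCK drive the Per, Cry and PAR bZIP genes through E-boxes, and the products of Per and Cry repress them in turn, so that Arntl and its targets peak at opposite times of day. Arntl had 2.73, 4.39, 2.04 and 0.756 FPKM in treatment libraries a to d and 0.336, 0.278 and 0.261 FPKM in control libraries (3.06 ± 0.49, SE, edgeR adjusted p = 0.00528). Nfil3, a repressor in antiphase to Dbp, had 7.04, 8.96, 6.22 and 6.97 FPKM in treatment and 2.99, 3.63 and 4.03 FPKM in control libraries. Of 10 repressors 4 fell and none rose, and of 10 output genes 5 fell and Nfil3 rose. Per1 had 10.4, 8.73, 11.2 and 13 FPKM in treatment and 23.2, 23.1 and 25.6 FPKM in control libraries (-1.16 ± 0.12, SE, edgeR adjusted p = 0.000611). Ciart, a repressor of CLOCK and BMAL1, had 1.49, 0.481, 1.74 and 1.83 FPKM in treatment and 8.85, 9.39 and 10.8 FPKM in control libraries (-2.81 ± 0.30, SE).

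Dbp, a PAR bZIP factor that is a direct target of CLOCK and BMAL1, had 19.6, 11.4, 23.1 and 15.6 FPKM in treatment and 45.4, 41.1 and 42.0 FPKM in control libraries (-1.31 ± 0.18, SE). Hlf, of the same family, had 4.73 to 7.73 FPKM in treatment and 11.2 to 12.8 FPKM in control libraries. Per2 and Per3 missed the threshold, at -1.14 ± 0.32 and -0.81 ± 0.23 (SE), with edgeR adjusted p = 0.0616 and 0.0617. Nr1d1, which peaks earlier than Per2, had 32.7, 29.1, 36.2 and 9.91 FPKM in treatment and 27.1, 23.2 and 19.2 FPKM in control libraries. Library d was the treatment library with the least Arntl and Nr1d1 and the most Per2 and Per3, at 9.12 and 10.4 FPKM. The time of tissue collection can move these genes and cannot be told apart from the groups. The call for Arntl was lost with limma-voom and with robust empirical Bayes. Without a control library 2 output genes fell. In the model with 11 libraries 2 repressors fell, and no activator or output gene was called.

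**Figure D4:**
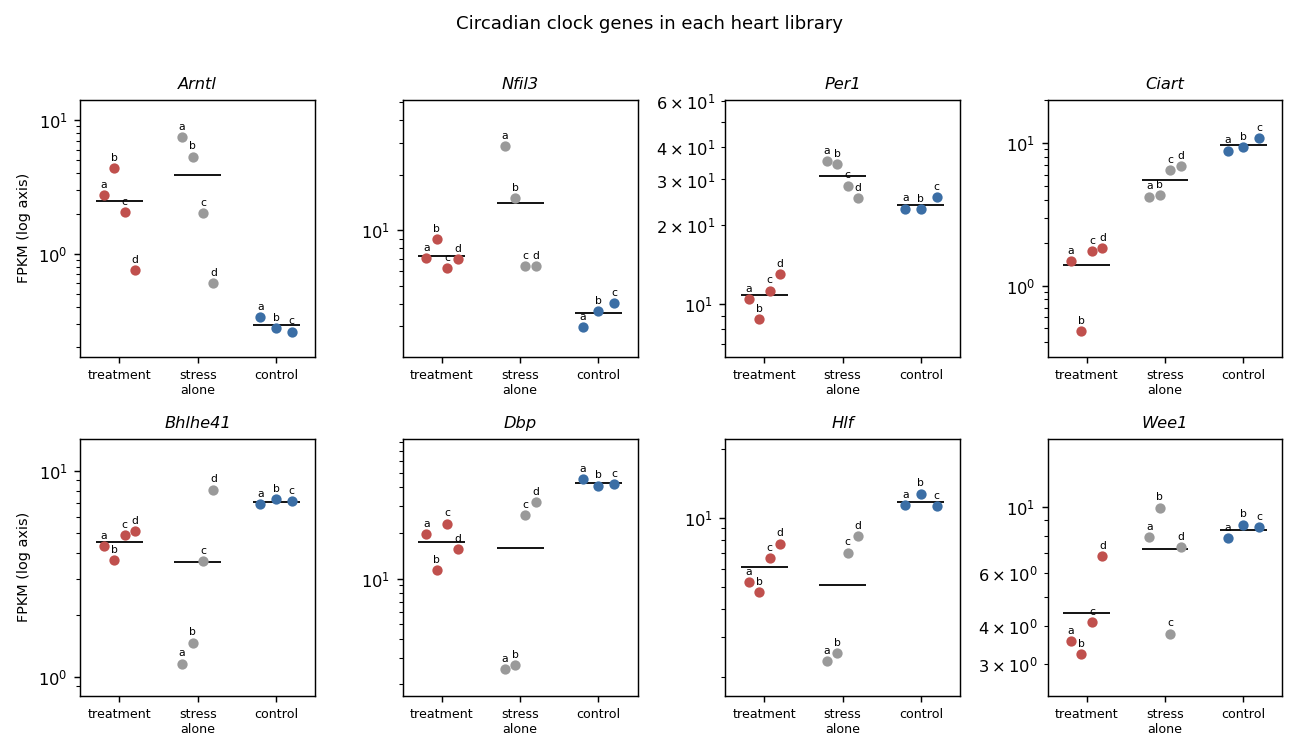
Level in FPKM (log axis) of 8 circadian clock genes in each library of the treatment, stress-alone and control groups, with letters for the libraries and a line at the group mean. Arntl and Nfil3 are higher in every treatment library than in every control library, and Per1, Ciart, Bhlhe41, Dbp, Hlf and Wee1 are lower in every treatment library than in every control library.

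The promoters of Per1, Ciart and Dbp are shown because they are the called clock genes with the smallest adjusted p, and E-boxes (CACGTG) are in capitals. Per1 is at chr11:69098699-69098998 (plus strand), Ciart at chr3:95882179-95882478 (minus strand) and Dbp at chr7:45704997-45705296 (plus strand), as RefSeq sequences of GRCm38.p6 with 250 bases before and 50 after the start listed.
Per1: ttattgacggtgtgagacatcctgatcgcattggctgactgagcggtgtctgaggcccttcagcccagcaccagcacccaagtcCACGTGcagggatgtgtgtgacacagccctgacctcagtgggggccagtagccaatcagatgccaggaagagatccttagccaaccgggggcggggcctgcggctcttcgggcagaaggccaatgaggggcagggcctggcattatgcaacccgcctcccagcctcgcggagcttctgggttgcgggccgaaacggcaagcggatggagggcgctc
Ciart: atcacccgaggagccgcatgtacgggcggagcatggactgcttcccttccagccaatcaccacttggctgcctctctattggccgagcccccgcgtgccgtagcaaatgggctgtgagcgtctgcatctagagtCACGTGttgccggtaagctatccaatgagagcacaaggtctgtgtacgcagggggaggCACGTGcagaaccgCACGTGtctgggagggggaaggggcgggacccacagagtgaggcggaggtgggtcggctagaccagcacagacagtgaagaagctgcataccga
Dbp: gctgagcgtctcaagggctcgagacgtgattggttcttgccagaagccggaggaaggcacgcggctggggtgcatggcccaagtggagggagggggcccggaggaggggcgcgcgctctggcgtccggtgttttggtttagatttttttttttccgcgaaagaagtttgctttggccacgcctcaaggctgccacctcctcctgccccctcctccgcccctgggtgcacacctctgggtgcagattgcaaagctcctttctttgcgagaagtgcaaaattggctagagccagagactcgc
The Ciart window holds 3 of these E-boxes, that of Per1 holds 1 and that of Dbp holds none within its letters. CACGTG was in 4 of 8 promoters of the tested clock repressors (50%) and in 4 of 9 of the tested output genes (44.4%), against 10% of all promoters of tested genes. Of the called members alone, it was in 3 of 4 promoters of repressors and in 1 of 5 of output genes. Among the genes that fell it was in 8.89%, and among those that rose in 7.27%.

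Immediate early genes, which are transcribed within minutes of a stimulus, tended to lower levels. Of 21 tested members, 7 fell (Ier2, Nr4a1, Nr4a3, Btg2, Zfp36, Dusp1 and Klf6) and none rose. Zfp36, which destabilizes mRNAs with AU-rich elements, had 2.62, 3.01, 2.07 and 2.36 FPKM in treatment and 4.66, 4.62 and 4.32 FPKM in control libraries (-0.87 ± 0.12, SE, edgeR adjusted p = 0.00313). Dusp1, a phosphatase of MAP kinases, had 15.4, 16, 13.5 and 22.9 FPKM in treatment and 36.7, 28.0 and 33.9 FPKM in control libraries. Fos did not pass the test, and its library d, at 2.13 FPKM, lay above the other treatment libraries, at 0.453 to 0.708 FPKM. Among 22 genes known to be induced by glucocorticoids, 9 fell and 2 rose, and Per1 and Dusp1 are members of this list and of lists above. The 2 that rose, Serpina3n and Lcn2, are also acute phase genes. Tsc22d3 and Sgk1 fell by 0.56 and 0.77 on the log2 scale. The glucocorticoid list summed to 394 to 430.3 FPKM in treatment and 494 to 592 FPKM in control libraries, against 649.98 to 3161 FPKM in stressed mice without the drug. Without a control library 2 to 4 immediate early genes and 3 to 6 genes of the glucocorticoid list fell. In the model with 11 libraries 1 member of the glucocorticoid list and no immediate early gene fell.

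The 13 endoplasmic reticulum stress genes (DE-ERSRGs) that the study selected were chosen on these samples, so their direction is not independent evidence. In the treatment against the control group 1 of them rose (Serpina3n) and 1 fell (Casq1), where 2.13% and 3.79% of all genes tested did. The other 11 did not pass the test. At an unadjusted edgeR p under 0.05 were 5 of the 13 (20.4% of all genes tested). Casq1, a calcium buffer of the sarcoplasmic reticulum, had 3.58, 4.90, 4.25 and 5.71 FPKM in treatment and 9.83, 15.9 and 11.6 FPKM in control libraries (-1.45 ± 0.18, SE, edgeR adjusted p = 0.00178). In stressed mice without the drug Casq1 was at 0.729 to 2.56 FPKM. Fkbp5, Gabarapl1, Herpud1 and Cdkn1a stood at -0.38, 0.12, -0.36 and 0.73 on the log2 scale. Herpud1 and Cdkn1a were near the threshold, with edgeR adjusted p = 0.0744 and 0.0643. They were called in 2 and 4 of 17 alternative fits. Gabarapl1, which acts in autophagosome formation, had 36.7 to 45.0 FPKM in treatment and 32.9 to 37.8 FPKM in control libraries, against 50.4 to 261 FPKM in stressed mice without the drug. None of 24 tested chaperones and degradation factors of the endoplasmic reticulum was called by edgeR. At an unadjusted p under 0.05 were 2 (20.4% of all genes tested), and DESeq2 called 1 (8.95% of all genes tested). Hspa5, the chaperone BiP, had 74.4 to 110.3 FPKM in treatment and 84.3 to 93.0 FPKM in control libraries. Among 19 tested targets of PERK and ATF4, Atf4 rose by 0.33 and Chac1, Psat1 and Ddit4 fell by 0.95, 0.85 and 0.60, and none of these was called in the model with 11 libraries.

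The gene with the most negative fold change among the named genes was Lrat, which esterifies retinol for storage and lies on chromosome 3 from 82892579 to 82903973 (minus strand). It had 0.181, 0.349, 0.245 and 0.427 FPKM in treatment and 3.38, 3.40 and 3.96 FPKM in control libraries (-3.59 ± 0.22, SE, edgeR adjusted p = 3.13e-05). In stressed mice without the drug it was at 0.0326 to 0.133 FPKM. Of the other tested retinoid genes Aldh1a1, a retinaldehyde dehydrogenase, fell by 0.73 and Dhrs3, a retinaldehyde reductase, rose by 0.28. Ptgds, which makes prostaglandin D, was among the most abundant genes that rose. It had 259.8, 139, 158 and 132 FPKM in treatment and 52.0, 41.8 and 70.8 FPKM in control libraries (1.63 ± 0.24, SE).

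Endothelial markers moved in both directions. Of 29 members, 4 rose and 6 fell. The peptide Apln and its receptor Aplnr fell by 0.77 and 0.93 on the log2 scale. Apln had 5.50, 6.29, 5.26 and 4.50 FPKM in treatment and 9.68, 8.96 and 8.64 FPKM in control libraries, and Aplnr had 7.90 to 15.6 FPKM in treatment and 18.8 to 25.8 FPKM in control libraries. Rgcc, Gpihbp1, Fabp4 and Cdh5 fell by 0.63, 0.41, 0.43 and 0.32. Kdr, Vwf, Icam1 and Prox1, a marker of lymphatic endothelium that cardiomyocytes also express, rose by 0.37, 0.38, 0.49 and 0.42. Pecam1 was at -0.16 and did not pass the test. Without a control library 1 to 3 of these markers rose and 3 fell, and none was called in the model with 11 libraries. Of 33 matrix proteins, Sparc, Col4a2 and Hspg2, which act at basement membranes, fell by 0.78, 0.67 and 0.42, and no member was called when a control library was left out. Without treatment library b, 11 members fell, and in that library Sparc was at 169 FPKM, against 85.7, 120 and 93.9 FPKM in treatment libraries a, c and d and 197 to 200.1 FPKM in control libraries. Col1a1 and Col3a1 did not pass the test, at -0.11 and -0.23.

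Some genes of the contractile apparatus and of metabolism were called, where 2.13% of all genes tested rose and 3.79% fell. Of 20 sarcomere genes, 1 rose (Myh7, the slow myosin heavy chain) and 2 fell (Tcap and Lmod2). Myh7 had 4.57, 14.4, 9.87 and 4.57 FPKM in treatment and 1.68, 3.39 and 2.33 FPKM in control libraries (1.74 ± 0.39, SE, edgeR adjusted p = 0.0274), and the call was lost whenever a control library or treatment library c was left out. Tcap, which anchors titin at the Z-disc, had 497, 264, 405 and 396 FPKM in treatment and 708, 690.5 and 738 FPKM in control libraries. Of 29 ion channel genes, 2 rose and 2 fell. The potassium channel genes Kcnv2 and Kcnq1 rose by 0.64 and 0.31, and Kcna5 was among those that fell, by 0.58. Of 79 nuclear genes of the respiratory chain, Cox7a2, Ndufb11 and Ndufb2 rose by 0.25, 0.26 and 0.58. None of 12 mitochondrial genes of the chain, 74 genes of the mitochondrial ribosome and 79 of the cytosolic ribosome was called by edgeR. At an unadjusted p under 0.05 were 3, 5 and 14 of them (20.4% of all genes tested). DESeq2 called 2, 0 and 4 (8.95% of all genes tested) and limma none. A positive log2 fold change was found for 4 of the 12, 32 of the 74 and 69 of the 79. The medians were -0.09, -0.02 and 0.13. Of 27 genes of fatty acid oxidation, Cpt2 fell by 0.34, and Pdk4 was at -0.60 with an edgeR adjusted p = 0.0614. Of 24 genes of glucose use, Hk1, a hexokinase, rose by 0.39 on the log2 scale, with 22.4 to 30.4 FPKM in treatment and 20.1 to 21.5 FPKM in control libraries. Of the same 24, 18 had a positive log2 fold change, with a median of 0.11. An unadjusted p under 0.05 was reached by 11 (20.4% of all genes tested). The Hk1 call was lost whenever a control library or treatment library c was left out. No gene of the sarcomere, ion channel, respiratory chain, fatty acid or glucose lists was called in the model with 11 libraries.

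**Figure D5:**
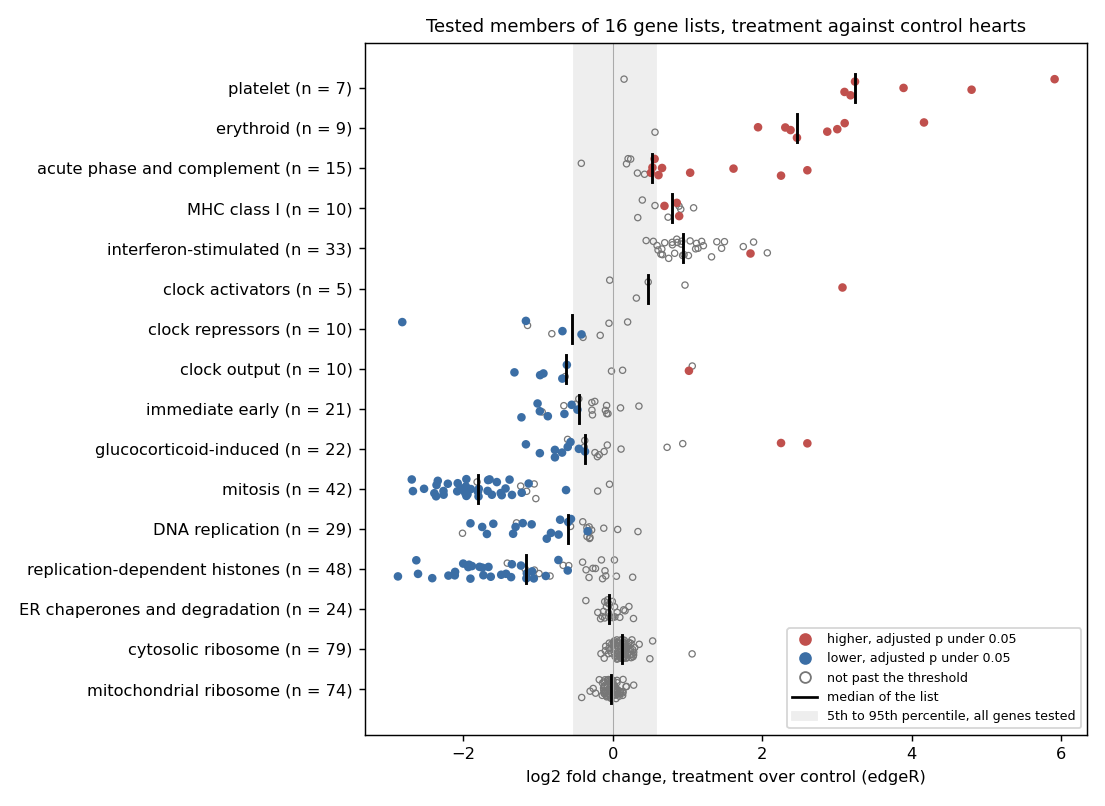
Log2 fold change (treatment over control) of the tested members of 16 gene lists, with filled points for members past the adjusted threshold, open points for the others, black bars at the list medians and a grey band from the 5th to the 95th percentile of all 13782 genes tested (-0.51 to 0.58). The medians of the mitosis and histone lists lie at -1.80 and -1.16 and those of the ribosome lists within the band, and the platelet list includes members tested because of their treatment level.

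A difference in Cnr2, the receptor of the drug, was not detectable at this depth. It had 0.373, 0.307, 0.321 and 0.228 FPKM in treatment and 0.174, 0.373 and 0.243 FPKM in control libraries, which overlap, and its log2 fold change was 0.21 ± 0.33 (SE, edgeR adjusted p = 0.775). These are 27 to 46 counts per treatment library and 22 to 44 per control library, so that only large differences could have been seen. Cnr1 had 2, 3, 2 and 2 counts in treatment and 0, 0 and 1 in control libraries and was not tested. None of the 9 tested genes of endocannabinoid synthesis, breakdown and reception passed edgeR's threshold, and 3 were at an unadjusted p under 0.05 (20.4% of all genes tested). DESeq2 called 1 of the 9 (8.95% of all genes tested) and limma none. Mgll, which degrades 2-arachidonoylglycerol, had 29, 25, 25.3 and 30.6 FPKM in treatment and 32.9, 30.9 and 32.8 FPKM in control libraries.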

How the data were processed

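Total RNA of whole hearts was sequenced as paired-end libraries from random-primed cDNA. The authors deposited 1 table with raw read counts per gene and 1 transcript length per gene. Its 11 further columns of values per library were not used, and FPKM was computed here as the count scaled by length and by the total count of the library. Tools credited in the submitters' processing notes are HISAT2, TopHat2 and cutadapt, with mm10 as the build. Versions, the counting program and its use of strand are not stated, so antisense overlaps cannot be resolved. The study's methods describe limma on FPKM. Because the table holds counts, edgeR 4.0.16 (R 4.3.3) was the test here.

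Columns were tied to groups by their names. The study's supplement names the columns of the stressed groups, and the 3 left over match the number of control mice. No source links the column letters to replicate numbers. The authors describe separate animals.

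Genes were filtered with edgeR's filter on low counts (10 counts), scaled by TMM and fitted with a mean per group over 7 libraries, and p-values were adjusted over all 13782 genes tested. The script was tested on simulated data. DESeq2 1.42.0, limma 3.58.1 (voom, and log2 of FPKM plus 1 or 0.1), other scalings and filters, a model over 11 libraries and fits without each library were alternatives. Summaries and figures used Python 3.11.15 with pandas 2.3.3 and matplotlib 3.10.9. The genes named are the 12 largest changes per direction with groups apart and at least 1 CPM, up to 4 called members per list with the smallest adjusted p, the 8 most abundant per direction, Cnr1, Cnr2, the 13 DE-ERSRGs and the genes with a printed promoter. Further list members are named beside them as examples, chosen after their values were seen. A few genes that the rule selects are not reported here. The members and lists were chosen with earlier results of these data known. Coordinates are from GENCODE M21 (GRCm38) by gene identifier. Intervals cover counting error only.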

Additional observations from a re-analysis of the deposited data

Results flagged for a closer look

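Among the treatment groups of 132 genes, 4 had a library far from the other 3, and chance alone gives about 5 in 100. Kcna5 was at 8.63 FPKM in library d, against 12.7 to 13.2 FPKM in the others. Fos was at 2.13 FPKM in library d, against 0.453 to 0.708 FPKM. H3c1, a histone copy that shares reads with others, was at 0.614 FPKM in library c, against 1.34 to 1.45 FPKM. Ppp1r15a was at 4.16 FPKM in library b, against 4.35 to 4.39 FPKM.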

How the results depend on the processing

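No called gene changed sign in any alternative. Adding the stress-alone libraries to the model gave 152 called genes (41 higher, 111 lower), all of them among the 816. DESeq2 called 1234 genes, 503 of them higher. Without each library in turn, called genes ranged from 275 to 803, with 74 to 308 higher and 201 to 495 lower. The lowest counts came from leaving out a control library (360, 342 and 275). Without treatment library a, b, c or d, 770, 776, 623 and 803 genes were called. The reason for these differences was not tested. Genes past the unadjusted p and the fold threshold numbered 314 higher without a filter, 129 higher with at least 1 CPM in 3 libraries, 68 (32 higher, 36 lower) with limma on log2(FPKM + 1) and 281 (113 higher) on log2(FPKM + 0.1). Adding 1 to FPKM shrinks the changes of low genes by construction. Without 1 library the log2 fold change ranged from -0.0095 to 0.54 for Cnr2, from -0.18 to 0.24 for Nox4 and from -0.037 to 0.17 for Ppp1r15a, none of them called. Other scalings and limma-voom called 782 to 828 genes. No paired analysis was possible because the columns carry letters that no source ties to the replicate numbers. With 3 control and 4 treatment libraries and few counts for platelet and neutrophil genes, depth limits those folds.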

Other observations

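Genes not named above gave a few further values. Apol11b, a mouse member of the apolipoprotein L family, had 1.67, 0.193, 0.386 and 0.833 FPKM in treatment and 0.0128, 0.0137 and 0.0380 FPKM in control libraries, with 231 and 5 counts in all. Chil3, a chitinase-like protein of monocytes and alternatively activated macrophages, had 1.25, 0.104, 0.201 and 1.11 FPKM in treatment and 0.0387, 0 and 0 FPKM in control libraries, a ratio of 51.1 with an exact 95% interval of 13.9 to 427 over 132 and 2 counts. Treml2, a receptor of the TREM cluster, had 0.210, 0.491, 0.554 and 0.889 FPKM in treatment and 0.0642, 0.0549 and 0.0190 FPKM in control libraries, with the same lowest and highest library as the platelet genes. Pax5, the B cell transcription factor, had 0.0154 to 0.0304 FPKM in treatment and 0.0648 to 0.107 FPKM in control libraries. Apol11b, Chil3 and Treml2 were below the filter's level in every control library and Pax5 in every treatment library, so that each was tested because of the other group. The calls of Apol11b and Chil3 were lost whenever a control library was left out. Chil3 was the 1 called gene of 8 tested markers of monocytes and recruited macrophages. Their median was 1.05, with 6 at an unadjusted edgeR p under 0.05 (20.4% of all genes tested), and 3 were tested because of their treatment level. Pax5 was the 1 called gene of 2 tested B cell markers.

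Nppa, the atrial natriuretic peptide, had 89.3, 391, 251 and 98.3 FPKM in treatment and 52.9, 55.3 and 94.4 FPKM in control libraries (1.59 ± 0.46, SE, edgeR adjusted p = 0.0737). Libraries b and c were high for Nppa as they were for Myh7 and Postn, and the atrial marker Myl7 was instead highest in libraries a and d, at 38.3 and 51.6 FPKM, against 19.2 and 25.6 FPKM in libraries b and c. How much atrial tissue each heart sample held was not measured.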
